A study of Mus with 8 samples.

Results

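The 10 genes described here encode channels, adhesion proteins, cytoskeletal proteins and nuclear proteins that cells use to sense and answer mechanical force. They are the ion channels Piezo1, Trpv2 and Trpv4, the adhesion adaptors Vcl and Tln1, the actomyosin genes Myh9 and Actb, the nuclear effectors Yap1 and Srf, and the lamina gene Lmna. They were taken by a fixed list of Ensembl gene IDs and make up 10 of the 17640 IDs counted. The rule itself uses no measured value, but the list was drawn up with earlier results of these data known. All 10 were present and all 10 passed the filter on low counts, as did 14785 IDs in all.

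Cells in a gel pull on their surroundings through integrins. Talin and vinculin link integrins to actin, non-muscle myosin puts tension on that actin, and stretch-sensitive cation channels admit calcium when the membrane is under load. Tension also reaches the nucleus, where the co-activator YAP1 and the transcription factor SRF act on genes of the cytoskeleton, and where lamin A/C, the product of Lmna, stiffens the nuclear envelope. Monocytes and the cells they give rise to use the same machinery to crawl through tissue and to build podosomes, their actin-rich adhesions.

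RNA was measured in 8 bulk libraries of bone marrow monocytes from C57BL/6 mice, 2 libraries in each of 4 groups. The groups were Jak2 V617F Vav-iCre cells in elastic gel, Jak2 V617F Vav-iCre cells in viscous gel, Vav-iCre control cells in elastic gel and Vav-iCre control cells in viscous gel. V617F is an activating mutation of the kinase JAK2 that drives myeloproliferative neoplasm. It was carried here as an endogenous knock-in allele, and both genotypes carried Vav-iCre, a Cre recombinase expressed in blood cells. Both gels were stiff (NbTz in the titles of the elastic libraries, VLVG in those of the viscous ones), and they may differ in more than elasticity. All cells were kept in gel to day 3 in medium with IL4 at 200 ng/mL and with GM-CSF and PGE2 at 100 ng/mL each. The labels give neither the age of the mice nor the number of animals behind a library. The questions the design poses are how the elasticity of a stiff gel changes these cells and whether mutant cells answer it differently.

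Totals ran from 30632355 to 38408851 counts per library. Each title ends in a number shared by 1 elastic and 1 viscous library, and the numbers are called J1 and J2 here for Jak2 V617F and W1 and W2 for control, in rising order. The labels do not say what the number marks, so p-values here measure the spread between libraries, which may be partly technical. Both control libraries numbered W1 stood apart on the first principal component (41.5% of the variance, scores of 69.4 in elastic and 78.2 in viscous gel, against -37.1 to -10.9 in the other 6), and results that rest on them are given with and without them. The files pair no ID with a name, so Jak2, the markers that would test the label of monocyte and the other genes of these pathways were not analysed here. CPM below are counts per 1e+06 counts of the TMM-scaled library total. They are not divided by transcript length, so levels are compared between libraries and not between genes. A gene counted as called where edgeR's quasi-likelihood test gave a p under 0.05 after Benjamini-Hochberg adjustment over all IDs tested.

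The 3 genes that stood farthest from equality between the gels were Lmna, Vcl and Trpv4. Averaged over genotypes, Lmna was 1.44-fold and Vcl 1.42-fold higher in elastic gel, and Trpv4 was 1.32-fold lower. Between genotypes, Trpv4 was 1.52-fold lower in Jak2 V617F cells over both gels. All 4 Jak2 V617F libraries lay below all 4 control libraries, as was so of 1 of the 10 genes and of 3.39% of all IDs. None of these differences passed the test after adjustment. In the gel comparison edgeR called 0 of the 10 genes, against 0% of all IDs tested, and 3 of the 10 had an unadjusted p under 0.05, against 6.28% of all IDs. Without both control libraries of W1, none of these 3 was under 0.05 and Piezo1 was the 1 member that was, against 11% of all IDs. DESeq2 called 0 of the 10 genes, against 0.906% of all IDs, and limma-voom called 0. In the other comparisons DESeq2 also called 0 of the 10, against 0.237% of all IDs for the gel within each genotype, 0.0135% for the difference of the gel effects, and, between genotypes, 0.298% in elastic gel, 0.413% in viscous gel and 0.696% over both gels.

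**Figure D1:**
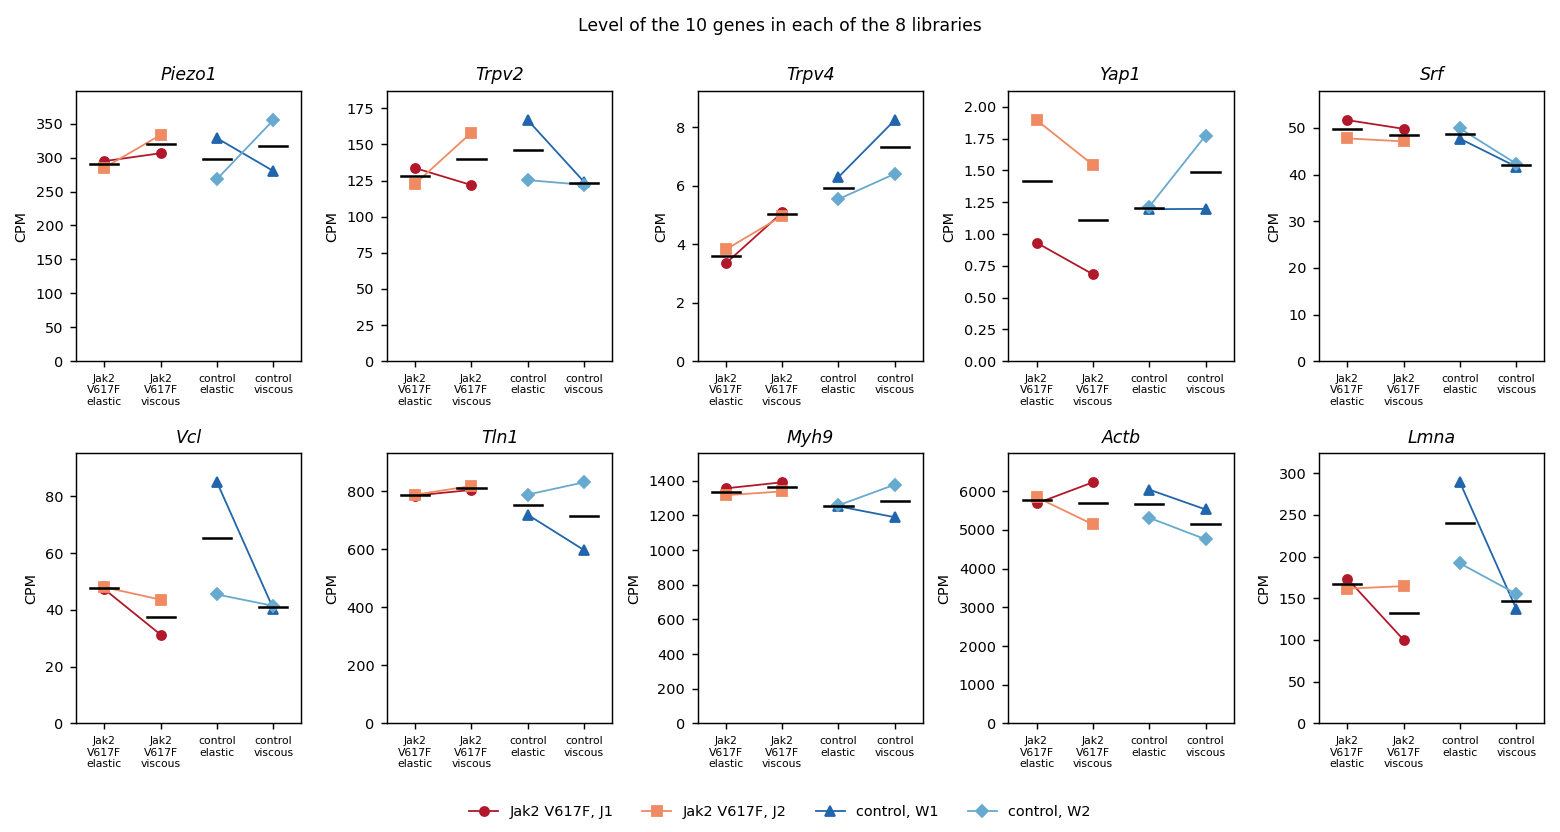
CPM (linear axis from 0) of each of the 10 genes in each of the 8 libraries, with a black bar at the mean of each group of 2 and a line joining the elastic and the viscous library that share a title number. The 4 Jak2 V617F libraries lie at 3.35 to 5.09 CPM for Trpv4, below the 4 control libraries at 5.54 to 8.25 CPM. Such an order was found in 3.39% of all IDs. The control elastic library W1 stands alone at 84.9 CPM for Vcl and 289.0 CPM for Lmna.

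Among the channels, Piezo1 (ENSMUSG00000014444, chromosome 8, 122481698 to 122551329; all positions are on GRCm38.p6) encodes the large channel that opens directly when the membrane is stretched. It stood at 294.8 and 285.2 CPM in elastic and 306.5 and 333.5 CPM in viscous gel in Jak2 V617F cells (numbers J1 and J2). In control cells it stood at 328.6 and 268.4 CPM in elastic and 280.3 and 355.3 CPM in viscous gel (W1 and W2). In Jak2 V617F cells both elastic libraries lay below both viscous ones, while in control cells the gels overlapped, as did the genotypes in each gel. The share of all IDs with such a gap between groups this small is not given here. The highest and the lowest library of the 8 were both control libraries of number W2. The elastic library was the lower one in 3 of 4 numbers, with an edgeR log2 fold change, elastic over viscous, of -0.12 (95% interval -0.42 to 0.19, adjusted p = 0.953). Without both libraries of W1 it was -0.27 (adjusted p = 0.426). Between genotypes Piezo1 differed by a log2 fold change of 0.0035 (Jak2 V617F over control, counts of both gels summed, 95% interval -0.34 to 0.35, adjusted p = 0.995).

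Trpv2 (ENSMUSG00000018507, chromosome 11, 62574486 to 62600305) encodes a cation channel that is abundant in macrophages and takes part in their movement and phagocytosis. Its 8 values ran from 121.9 to 166.9 CPM with a median of 124.7 CPM. Jak2 V617F cells held 133.7 and 122.8 CPM in elastic and 121.9 and 158.2 CPM in viscous gel (J1 and J2). Control cells held 166.9 and 125.3 CPM in elastic and 124.1 and 122.1 CPM in viscous gel (W1 and W2). A single library stood above the rest in each genotype, the viscous one of J2 and the elastic one of W1, so the group means pointed in opposite directions. The gel ratio, elastic over viscous, was 1.10 and 0.776 in Jak2 V617F cells, against 1.34 and 1.03 in control cells. The difference of the gel effects, Jak2 V617F minus control, was -0.37 on the log2 scale (95% interval -1.02 to 0.27, adjusted p = 1), and -0.16 without both libraries of W1. Averaged over genotypes the log2 fold change was 0.060 (SE 0.13, adjusted p = 0.983), and -0.044 without both libraries of W1.

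Trpv4 (ENSMUSG00000014158, chromosome 5, 114622152 to 114658435) encodes a calcium-permeable channel that answers swelling and shear, and in mouse macrophages it has been tied to responses to matrix stiffness. Its counts were low, from 115 to 303 per library. Jak2 V617F cells held 3.35 and 3.82 CPM in elastic and 5.09 and 4.97 CPM in viscous gel (J1 and J2). Control cells held 6.30 and 5.54 CPM in elastic and 8.25 and 6.41 CPM in viscous gel (W1 and W2). By group mean the order, from low to high, was Jak2 V617F in elastic gel (3.59 ± 0.34 CPM), Jak2 V617F in viscous gel (5.03 ± 0.085 CPM), control in elastic gel (5.92 ± 0.53 CPM) and control in viscous gel (7.33 ± 1.30 CPM; SD, n = 2 each). Neighbouring groups did not overlap in their 2 libraries, but the share of all IDs with such an order is not given here. The step between the 2 control groups was about the size of the spread in viscous gel.

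Trpv4 was lower in Jak2 V617F cells in both gels. The log2 fold change, Jak2 V617F over control, was -0.72 in elastic gel (SE 0.22, adjusted p = 0.937) and -0.54 in viscous gel (SE 0.22, adjusted p = 0.664), and without W1 these values were -0.63 and -0.35. With the counts of each title number summed over both gels it was -0.60 (SE 0.20, 95% interval -1.15 to -0.062, adjusted p = 0.792). Trpv4 was the 1 member of 10 under an unadjusted p of 0.05 in each of these comparisons, against 4.42% of all IDs in elastic gel, 7.31% in viscous gel and 5.22% in the summed comparison. Without W1 it was under 0.05 in elastic gel and in the summed comparison but not in viscous gel, against 4.86%, 12.7% and 12.2% of all IDs. It was also the 1 member whose genotypes did not overlap over 4 libraries each, as was so of 6.89% of all IDs, 3.39% with Jak2 V617F below. In these bulk libraries, fewer cells of a type that carries a transcript and less of that transcript per cell cannot be told apart.

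Over 11 alternative settings of the summed comparison the log2 fold change of Trpv4 stayed between -0.74 and -0.45, and the adjusted p ran from 0.0481 to 1. The value of 0.0481 came from the fit without the control sum of number W2, where number W1 alone stands for the control genotype and 2403 IDs were called. Without number W1 the log2 fold change was -0.45.

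Trpv4 was lower in elastic than in viscous gel in all 4 title numbers, with ratios of 0.658 and 0.769 in Jak2 V617F cells and 0.764 and 0.865 in control cells. Averaged over genotypes the log2 fold change was -0.40 (SE 0.16, 95% interval -0.77 to -0.022, adjusted p = 0.768). It was -0.49 within Jak2 V617F cells (adjusted p = 1) and -0.31 within control cells (adjusted p = 0.985). The difference between these effects was -0.18 with a 95% interval of -0.93 to 0.57. Without both control libraries of number W1 the averaged value was -0.35 and the value within control cells -0.21.

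**Figure D2:**
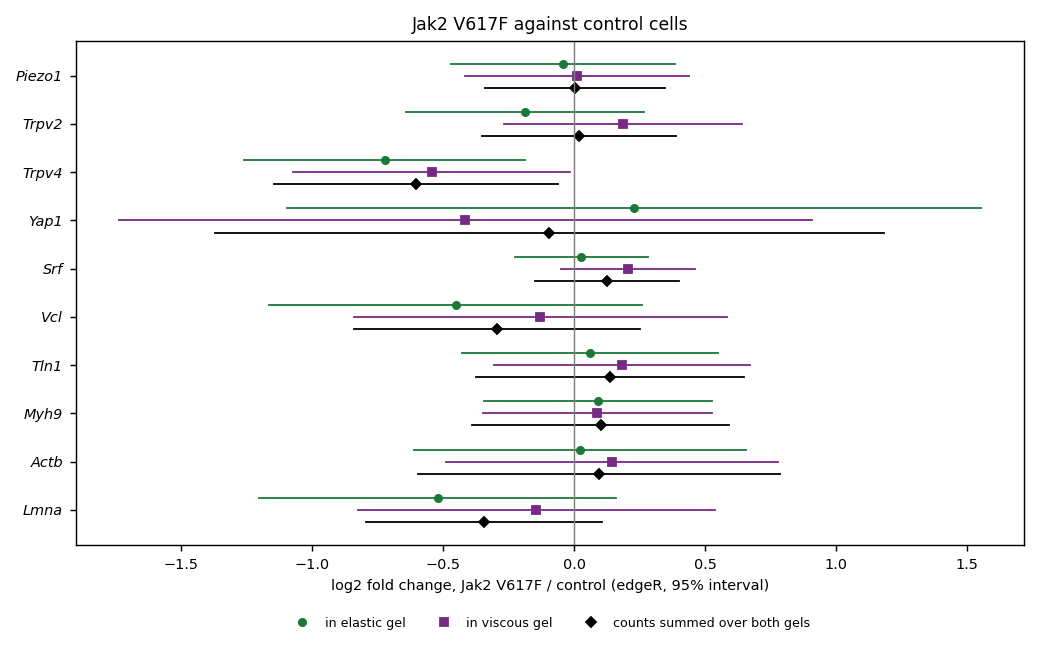
Log2 fold change of each gene, Jak2 V617F over control, in elastic gel, in viscous gel and with counts summed over both gels. Points are edgeR estimates and lines 95% intervals; Trpv4, at -0.72, -0.54 and -0.60, is the gene whose 3 intervals lie below 0, before adjustment over all IDs.

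Of the adhesion adaptors, Vcl (ENSMUSG00000021823, chromosome 14, 20929383 to 21033676) encodes vinculin, which reinforces the talin-actin link under load. Vcl held 47.3 and 48.0 CPM in elastic and 31.2 and 43.6 CPM in viscous gel in Jak2 V617F cells (J1 and J2). In control cells it held 84.9 and 45.4 CPM in elastic and 40.4 and 41.4 CPM in viscous gel (W1 and W2). All 4 elastic libraries lay above all 4 viscous ones, which makes Vcl the 1 member of 10 whose gels did not overlap, as was so of 3.73% of all IDs and of 2.07% with elastic above. The gap was narrow in 2 of the 4 numbers: the ratio, elastic over viscous, was 1.51 for J1 and 1.10 for J2, against 2.10 for W1 and 1.10 for W2. Averaged over genotypes the log2 fold change was 0.51 (SE 0.21, 95% interval 0.0047 to 1.01, adjusted p = 0.789). It was 0.35 within Jak2 V617F cells (adjusted p = 1; 0.13 without the viscous library of J1) and 0.67 within control cells (adjusted p = 0.985; 0.13 without W1), and the difference of the effects was -0.32 (95% interval -1.33 to 0.68).

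Without the control elastic library of number W1 the averaged log2 fold change was 0.25, and without both libraries of that number it was 0.24. Between genotypes Vcl differed by -0.29 with both gels summed (95% interval -0.84 to 0.25, adjusted p = 0.805), and by -0.040 without W1. That value was -0.45 in elastic gel, where it was 0.068 without number W1, and -0.13 in viscous gel, where it was 0.092 without the Jak2 V617F library of J1.

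Tln1 (ENSMUSG00000028465, chromosome 4, 43531513 to 43562583) encodes talin-1, which binds and activates integrins. In Jak2 V617F cells its 4 values lay close together, at 784.8 and 788.1 CPM in elastic and 804.2 and 817.7 CPM in viscous gel (J1 and J2). Control cells held 718.7 and 788.1 CPM in elastic and 597.0 and 830.5 CPM in viscous gel (W1 and W2). Both libraries of number W1 were below the other 6, and the other 6 spanned 784.8 to 830.5 CPM. The share of all IDs with such a split is not given here. Averaged over genotypes the log2 fold change between the gels was 0.017 (SE 0.14, adjusted p = 0.997), and between genotypes, summed over gels, it was 0.14 (SE 0.19, adjusted p = 0.877). Without number W1 these values were -0.060 and -0.015.

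Myh9 (ENSMUSG00000022443, chromosome 15, 77760585 to 77842175) encodes the heavy chain of non-muscle myosin IIA, the main motor of contraction in blood cells. It had the narrowest relative range of the 10 genes, 1189 to 1391 CPM over the 8 libraries, or 1.17-fold from lowest to highest. Jak2 V617F cells held 1356 and 1316 CPM in elastic and 1391 and 1338 CPM in viscous gel, against 1252 and 1258 CPM in elastic and 1189 and 1377 CPM in viscous gel in control cells. In elastic gel both Jak2 V617F libraries lay above both control libraries, and in viscous gel the genotypes overlapped. The share of all IDs with such a gap between groups this small is not given here. The log2 fold change was -0.031 between the gels (95% interval -0.34 to 0.28, adjusted p = 0.991) and 0.10 between genotypes (95% interval -0.39 to 0.59, adjusted p = 0.904).

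Actb (ENSMUSG00000029580, chromosome 5, 142903115 to 142907976) encodes beta-actin and took 0.469% to 0.641% of all counts in a library. It held 5684 and 5844 CPM in elastic and 6230 and 5143 CPM in viscous gel in Jak2 V617F cells, against 6041 and 5313 CPM in elastic and 5529 and 4758 CPM in viscous gel in control cells. The highest and the lowest value were both in viscous gel, and the elastic library was the higher one in 3 of 4 numbers. Log2 fold changes were 0.081 between the gels (95% interval -0.37 to 0.53, adjusted p = 0.983) and 0.094 between genotypes (95% interval -0.60 to 0.79, adjusted p = 0.939). Actb is often used to normalise other transcripts, and its spread over the 8 libraries was 1.31-fold.

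Of the nuclear effectors, Srf (ENSMUSG00000015605, chromosome 17, 46546838 to 46558267) encodes serum response factor, the transcription factor that reads the pool of free actin through its MRTF co-activators. It held 51.7 and 47.7 CPM in elastic and 49.8 and 47.1 CPM in viscous gel in Jak2 V617F cells (J1 and J2). Control cells held 47.7 and 49.9 CPM in elastic and 41.7 and 42.3 CPM in viscous gel (W1 and W2). The control viscous libraries were the lowest 2 of the 8 and lay apart from the other 6, which spanned 47.1 to 51.7 CPM. The share of all IDs with such a split is not given here. In viscous gel the log2 fold change, Jak2 V617F over control, was 0.21 (95% interval -0.049 to 0.46, adjusted p = 0.664). With both gels summed it was 0.12 (95% interval -0.15 to 0.40, adjusted p = 0.82). The elastic library was the higher one in all 4 numbers, by ratios of 1.04 and 1.01 in Jak2 V617F cells and 1.14 and 1.18 in control cells. The averaged log2 fold change was 0.13 (SE 0.075, 95% interval -0.054 to 0.31, adjusted p = 0.902), and the difference of the gel effects was -0.18 (95% interval -0.54 to 0.18, adjusted p = 1). Srf, Vcl and Trpv4 were the 3 members of 10 with the elastic library on 1 side of the viscous one in all 4 numbers, as was so of 21.6% of all IDs.

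Yap1 (ENSMUSG00000053110, chromosome 9, 7931999 to 8004638) encodes the Hippo pathway co-activator that enters the nucleus of adherent cells on stiff ground. It had 27 to 60 counts per library, so counting error alone was wide: the lowest value, 0.683 CPM in the Jak2 V617F viscous library of J1, had an exact 95% Poisson interval of 0.450 to 0.994 CPM, which covers counting error only. Jak2 V617F cells held 0.932 and 1.90 CPM in elastic and 0.683 and 1.54 CPM in viscous gel (J1 and J2). Control cells held 1.20 and 1.21 CPM in elastic and 1.20 and 1.77 CPM in viscous gel (W1 and W2). In Jak2 V617F cells the 2 title numbers lay farther apart than the 2 gels, and number J2 was the higher one in both gels. The log2 fold change was 0.022 between the gels (95% interval -0.91 to 0.96) and -0.095 between genotypes (95% interval -1.37 to 1.18), and the difference of the gel effects was 0.64 (95% interval -1.23 to 2.52, adjusted p = 1). No difference in Yap1 was detectable at this depth and number of libraries.

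Lmna (ENSMUSG00000028063, chromosome 3, 88481148 to 88509932), whose product scales with tissue stiffness in other cell types, held 173.5 and 161.6 CPM in elastic and 100.1 and 164.6 CPM in viscous gel in Jak2 V617F cells (J1 and J2). In control cells it held 289.0 and 191.9 CPM in elastic and 137.3 and 155.3 CPM in viscous gel (W1 and W2). The gels overlapped in the Jak2 V617F libraries of number J2, where the ratio, elastic over viscous, was 0.982. It was 1.73 for J1, against 2.11 for W1 and 1.24 for W2. The averaged log2 fold change was 0.53 (SE 0.20, 95% interval 0.047 to 1.01, adjusted p = 0.762), with 0.34 within Jak2 V617F cells (adjusted p = 1) and 0.72 within control cells (adjusted p = 0.985). The value within Jak2 V617F cells was 0.026 without the viscous library of J1, and that within control cells was 0.31 without W1. In control cells Lmna was the 1 member of 10 with an unadjusted p under 0.05, against 4.85% of all IDs, and without W1 there was none, against 6.58%; in Jak2 V617F cells there was none of the 10, against 3.08%.

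Without both control libraries of number W1 the averaged log2 fold change of Lmna was 0.32, and without the control elastic library of that number alone it was 0.37. Between genotypes Lmna differed by -0.35 with both gels summed (SE 0.17, 95% interval -0.80 to 0.11, adjusted p = 0.792), by -0.52 in elastic and by -0.14 in viscous gel. The summed value was -0.22 both without W1 and without J1, and the elastic value -0.20 without W1. The viscous value was 0.17 without the Jak2 V617F library of number J1.

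**Figure D3:**
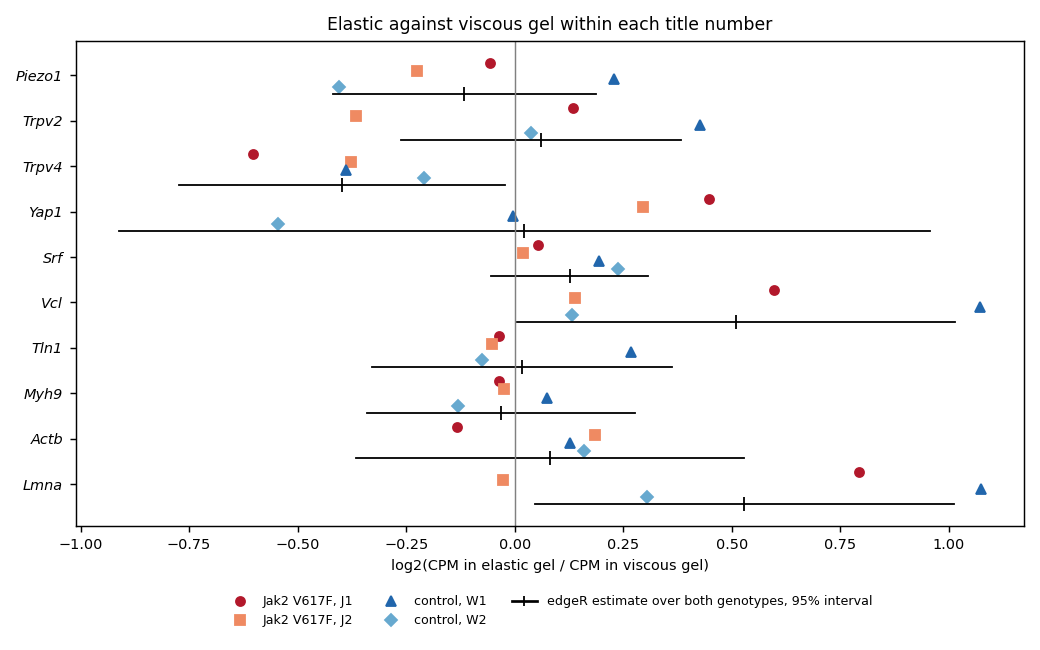
Log2 ratio of CPM, elastic over viscous gel, for each gene within each of the 4 title numbers (coloured points) beside the edgeR estimate over both genotypes with its 95% interval (black). Vcl and Srf have all 4 points above 0 and Trpv4 all 4 below, and the Lmna and Vcl points of control number W1, with ratios of 2.11 and 2.10, lie farthest to the right.

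Across the 10 genes the median log2 fold change, elastic over viscous, was 0.041, beside -0.0043 over all IDs tested, and the median absolute value was 0.099, beside 0.14. Lmna and Vcl stood at 0.53 and 0.51, Trpv4 at -0.40 and the other 7 between -0.12 and 0.13. For the difference of the gel effects, Jak2 V617F minus control, the median over the 10 genes was -0.15, beside -0.029 over all IDs. The median absolute value was 0.18, beside 0.21. All 10 values come from the same libraries. The difference was below 0 in 8 of the 10 genes and ran from -0.38 for Lmna to 0.64 for Yap1. Without both libraries of W1 it was above 0 in 6 of the 10 genes and below 0 in 4: Piezo1 (0.26), Vcl (0.22), Tln1 (0.031) and Lmna (0.035) then joined Yap1 (0.89) and Myh9 (0.10) above 0. None of the 10 had an unadjusted p under 0.05 in that comparison, against 1.72% of all IDs. In the summed genotype comparison the median over the 10 genes was 0.011, beside -0.0049 over all IDs, and the median absolute value was 0.11, beside 0.19.

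Vcl and Lmna followed each other across the libraries. Pearson's r of log2 CPM was 0.956 over the 8 libraries and 0.932 over the 6 without number W1, and of 11742 other IDs averaging 50 counts or more, 8 had a higher r with Vcl than Lmna had. The Jak2 V617F viscous library of J1 was the lowest for both genes and the control elastic library of W1 the highest for both; without these 2, which lie farthest from the median of Vcl, r was 0.675 over the other 6. These points share libraries, culture and scaling, and libraries of a title number may not be independent, so r is given as a description with no p. Tln1 and Myh9 had 0.854 over 8 libraries and 0.522 over the 6 without W1. Over the 8 libraries, 389 IDs had a higher r with Tln1 than Myh9 had. Piezo1 and Tln1 had 0.388 over 8, 0.938 over the 6 without W1 and 0.446 without the 2 libraries farthest from the median of Piezo1. Trpv4 and Srf had -0.761 over 8 and -0.65 over the 6 without W1, and -0.39 without the 2 libraries farthest from the median of Trpv4. Only some pairs of the 10 genes are given here. Some others changed sign without W1, such as Srf and Tln1 (0.482 over 8, -0.843 over the 6) and Trpv4 and Tln1 (-0.602 and 0.724). For each of the 10 genes, none of the 3 IDs with the highest r (0.909 to 0.992) was another member, and the files give those IDs no name.

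**Figure D4:**
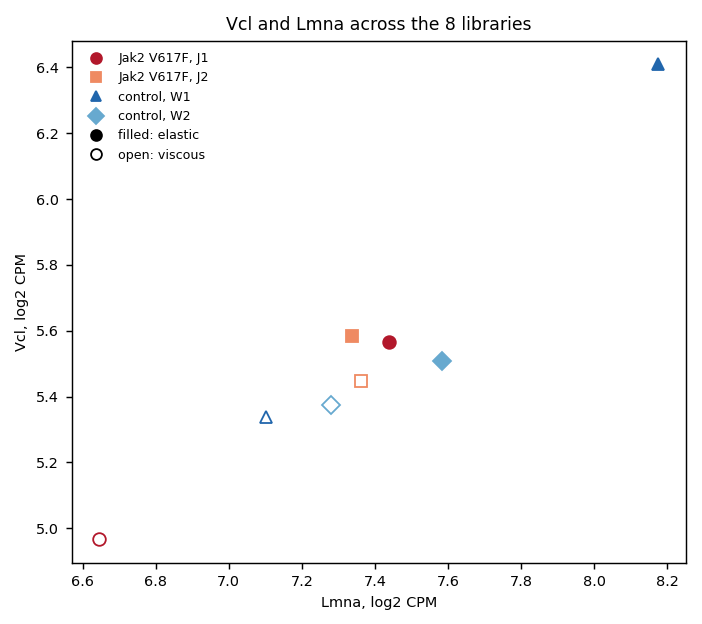
Log2 CPM of Vcl (vertical) against log2 CPM of Lmna (horizontal) in the 8 libraries, filled for elastic and open for viscous gel. The points run from low in both genes to high in both (r = 0.956, and 0.675 without the 2 end points), from the Jak2 V617F viscous library J1 at the lower left to the control elastic library W1 at the upper right.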

How the data were processed

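The deposited values are raw, whole-number counts by Ensembl gene ID, which the authors gave in 1 table of the series and again in 8 per-library files with equal values. The submitters' processing notes name Salmon, DESeq2 and GRCm38; versions, rounding, filters and strand are not given in the sources used here. Salmon divides shared reads by estimation, so counts of genes with close copies, such as Actb, are uncertain. No ID summed to fewer than 10 counts over the 8 libraries.

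Counts were analysed in R 4.3.3 with edgeR 4.0.16: TMM scaling, filterByExpr by group, and a quasi-likelihood fit of 4 group means to 8 libraries, two-sided, with Benjamini-Hochberg adjustment over 14785 IDs. The genotype comparison over both gels used counts summed per title number, 2 sums against 2 (15239 IDs). Log2 CPM used a prior count of 2. Alternatives were DESeq2 1.42.0, limma-voom (limma 3.58.1), other scalings and filters, left-out libraries, a block on the title number, and fits of fewer libraries. The scripts were tested on simulated data. Gene symbols came with the list of 10 IDs; positions came by symbol from a RefSeq table of GRCm38.p6, in which 0 of 49997 genes carried an Ensembl ID, so the pathway and marker lists drawn up for this work could not be matched and were not analysed here. All 10 genes and all lists were chosen with earlier results of these data known. All 10 are described in every library, and within 1 genotype or gel fold changes are given for Trpv4, Vcl and Lmna, which had an unadjusted p under 0.05 over both. Single values or ranges of that kind are also given for Srf, Piezo1, Actb and Tln1. Plots used Python 3.11.15 with matplotlib 3.10.9.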

Additional observations from a re-analysis of the deposited data

Results flagged for a closer look

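Sets of 4 libraries were checked for each of the 10 genes: the elastic, the viscous, the Jak2 V617F and the control libraries. In 8 of these 40 sets a value's gap to its nearest neighbour, divided by the range, was above Dixon's 95% critical value for 4 samples. Chance gives about 1 in 20 for independent sets, each drawn from 1 population. Here each library is in 2 sets and each set pools 2 groups, so 8 of 40 cannot be read against that rate. Vcl in the control elastic library of number W1, at 84.9 CPM, stood apart from the other elastic and from the other control libraries. Tln1 in the libraries of W1 stood below the other elastic libraries, at 718.7 CPM, and below the other viscous ones, at 597.0 CPM. Trpv2 stood apart at 166.9 CPM in the control elastic library of W1 among control libraries, and at 158.2 CPM in the Jak2 V617F viscous library of J2 among viscous libraries. Lmna, at 100.1 CPM in the Jak2 V617F viscous library of J1, stood below the other Jak2 V617F libraries. Yap1, at 1.77 CPM in the control viscous library of W2, stood above the other control libraries on 57 counts. The Vcl value was found in 2 sets, so there are 7 different values, of which 4 belong to number W1, the number that stood apart on the first principal component; its part in them was not tested.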

How the results depend on the processing

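Of 660 log2 fold changes recomputed under alternatives, 612 kept their direction and their side of the threshold, 47 changed sign and 1 passed the threshold, Trpv4 between genotypes without the control sum of W2 (-0.74). Within 1 genotype or gel, these 660 values cover Trpv4, Vcl and Lmna only. Among the other genes there, some changed sign. Between the gels, Piezo1 ran from -0.40 to 0.22 within control, and Actb from -0.11 to 0.16 within Jak2 V617F. Others did not, such as Tln1 within Jak2 V617F (-0.056 to -0.032). Where a fit left out a library outside the comparison, the value hardly moved, as for Vcl within control. Scalings moved the median of all IDs by at most 0.022 on the log2 scale. Each group had 2 libraries, and Yap1 and Trpv4 had 27 to 303 counts per library. How far depth or replication limited what could be called was not tested.

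edgeR called 0 IDs in each of the 7 comparisons. DESeq2 called 134 between the gels over both genotypes, 35 within control, 35 within Jak2 V617F, 2 for the difference of the gel effects, 61 between genotypes in viscous gel, 44 in elastic gel and 106 over both gels. Over both genotypes the gel comparison gave 1 call with no filter, 1 with at least 50 counts in 2 libraries, 2 without both W1 libraries and 1 without both W2 libraries. Without both W2 libraries there was 1 call within control and 1 within Jak2 V617F, and 784 and 1190 between genotypes in viscous and in elastic gel; the control group was then W1 alone, whose spread is assumed to be like that of the other groups. Within Jak2 V617F there was 1 call without both W1 libraries and 1 with only the 4 libraries compared. The genotype effect averaged over 8 libraries gave 2 calls, and leaving out 1 sum gave 0 to 2403 calls over all IDs and 0 to 1 of the 10 genes.

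With the title number as a replicate block, 5 IDs were called between the gels and 0 of the 10 genes. Deviations from the group means correlated at 0.53 between same-numbered control libraries and at -0.089 between same-numbered Jak2 V617F libraries. The genotypes differed in this, so these values do not settle whether the numbers pair the libraries. The main fit did not use the numbers as pairs. The block left 3 of the 10 genes with an unadjusted p under 0.05, against 11.9% of all IDs (6.28% without it), Lmna (adjusted p = 0.364), Vcl (0.377) and Trpv4 (0.376), and the difference of the gel effects in Myh9 was -0.0021.

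The cause of the changes of sign was not tested. Between the gels, without both W1 libraries, Trpv2 was -0.044, Yap1 -0.10 and Tln1 -0.060, and without both W2 libraries Piezo1 was 0.038 and Myh9 0.016. For the difference of the gel effects, without both W1 libraries, Piezo1 was 0.26, Vcl 0.22, Tln1 0.031 and Lmna 0.035. In that comparison Myh9 was -0.0080 with no filter and -0.097 without both W2 libraries. In elastic gel Vcl between genotypes was 0.068 without both W1 libraries. Over both gels Piezo1 was -0.0024 with DESeq2 size factors, -0.0073 with the filter of 50 counts, -0.0024 with DESeq2 and -0.016 averaged over 8 libraries, where Trpv2 was -0.00088.

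Leaving out 1 library gave ranges that crossed 0. Between the gels these were -0.051 to 0.16 for Trpv2, -0.27 to 0.37 for Yap1, -0.092 to 0.15 for Tln1 and -0.082 to 0.024 for Myh9. For the difference of the gel effects they were -0.23 to 0.11 for Piezo1, -0.71 to 0.20 for Vcl, -0.38 to 0.096 for Tln1, -0.11 to 0.10 for Myh9, -0.25 to 0.022 for Actb and -0.69 to 0.026 for Lmna. Between genotypes they were -0.39 to 0.092 for Vcl and -0.55 to 0.17 for Lmna in viscous gel, and -0.83 to 0.068 for Vcl in elastic gel. With 1 sum left out they were -0.026 to 0.031 for Piezo1, -0.081 to 0.12 for Trpv2, -0.74 to 0.34 for Yap1 and -0.015 to 0.31 for Tln1.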
